A study of Mus musculus with 12 samples.

Results

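The 3p arms of the mouse miRNAs numbered miR-6896 to miR-7094 form a block of late-annotated, mirtron-like miRNAs, and all array entries with such a name and the ending -3p were taken, 199 of the 1881 miRNAs on the array. The rule uses only names, although the block was picked with earlier results of these data known. The arrays were hybridized with RNA of microglial exosomes, small vesicles precipitated from digested cortex and hippocampus (cerebrum in the labels). These were then pulled down through the surface protein CD11b. They came from male C57BL/6 mice, aged 12 weeks when purchased. The mice of 3 groups had received 4 closed-head impacts at intervals of 48 h (repetitive mild traumatic brain injury, rmTBI) and were killed at 3, 14, or 42 days post-injury (DPI), while no impact was given to the sham group, whose handling was otherwise alike. The day on which sham mice were killed is not given, and age at killing cannot be told apart from days post-injury. Each group had 3 arrays, 12 in all. The labels do not say whether these came from separate animals or pools, so the p-values measure the spread between these arrays, which may be technical.

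Mirtrons are short introns that fold into a hairpin, so that splicing and debranching make the precursor in place of the nuclear enzyme Drosha, and Dicer then cuts out the miRNA. In tailed mirtrons only 1 end of the hairpin is set by a splice site. Introns end in the bases AG, usually after a run of pyrimidines, so a 3p arm made at an acceptor site carries both features at its 3′ end. Most mirtrons are expressed at a low level, and little is known of the function of the members of this block.

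The mature sequences, taken from RefSeq (GRCm38.p6), were found for 175 of the 199 members. Those of the 14 members that were detected on at least 1 array and have a sequence are shown because every result on levels rests on them. They are written 5′ to 3′, with the seed (bases 2 to 8), the part that pairs with a target, in capitals.
miR-7022-3p: aCAAGCCUgaccucugccccca
miR-6976-3p: aUCUCCCUcccaacuccccag
miR-7055-3p: uUGCUACUuugauaccccaccag
miR-7047-3p: uCACCCUCacccuuccuccuucc
miR-7034-3p: uUGGCCUUccuucccuacccuaca
miR-7033-3p: uGCCUCCAuucucuugggcag
miR-6934-3p: aCCUCUGCuccugccccaccag
miR-6943-3p: cUGCUUCCauaccccuacccag
miR-6968-3p: aCAAGCGCugucuccccuccag
miR-7080-3p: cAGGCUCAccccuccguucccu
miR-7085-3p: uAGCUGGCcucuccccaccuuc
miR-6897-3p: cGGUCUGUguucuucccccag
miR-7046-3p: uGAACCACccaucccccuacag
miR-7052-3p: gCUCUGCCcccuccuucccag
The other members detected on at least 1 array were miR-6923-3p and miR-6980-3p.

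The sequences share the features of an intron end. No sequence was used in the choice by number. The block was picked as mirtron-like, however, so the shares below are no independent support for that name. Of the 175 members with a sequence, 118 (67.4%) ended in CAG, and 136 (77.7%) in AG. Among 500 other 3p arms of the array, 5.6% ended in CAG and 11.2% in AG, and among 176 5p arms with the same numbers 2.27% ended in CAG. Pyrimidines made up a median of 72% of a member's bases, from 47.6% to 91.3%, with medians of 54.5% in the other 3p arms and 31.8% in the 5p arms of the block. A pyrimidine content of at least 60% was found in 163 members (93.1%), against 29.8% of the other 3p arms and none of these 5p arms. miR-7047-3p had the highest share, 91.3%, and carried no AG at its end, whereas miR-6976-3p had 76.2% and ended in CAG. These shares describe the annotation and were not tested.

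**Figure D1:**
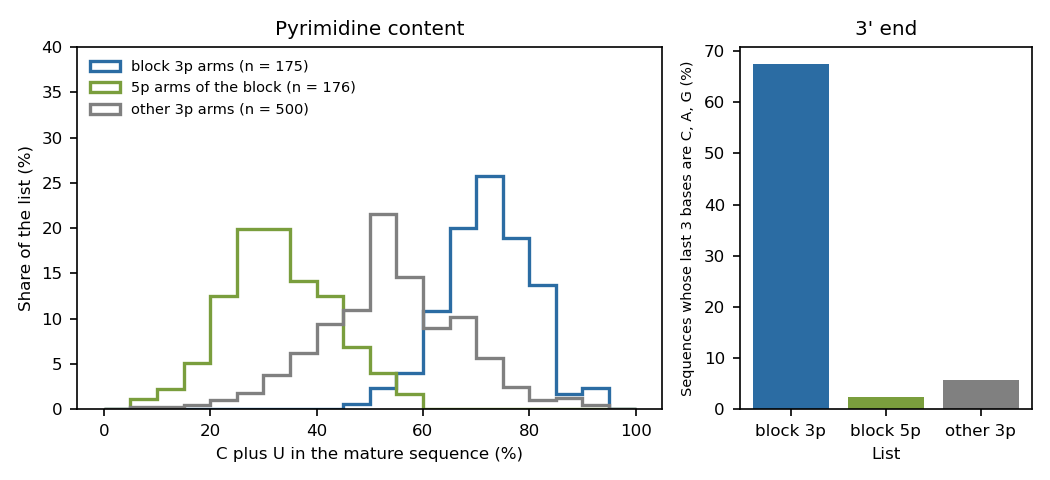
Left, histograms of the share of C plus U in the mature RefSeq sequence (%, bins of 5) for the 175 members of the block with a sequence, 176 5p arms with the same numbers, and 500 other 3p arms, each as % of its list. Right, bars of the share of each list that ended in C, A, G (67.4%, 2.27%, and 5.6%). The members lie toward higher shares than both other lists, with overlap.

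The hairpins of the members were asymmetric in the same respect. Of 170 hairpins, 160 (94.1%) ended in AG, against 10.3% of 468 hairpins of other 3p arms, while 23 (13.5%) began with GU, the bases that start an intron, against 7.05%. The last base of the mature 3p arm was the last base of the hairpin in 126 of the 170 members with a hairpin and lay within 2 bases of it in 154. The median hairpin length was 66 bases, against 79. Of the 175 placed members, 174 lay within the span of a protein-coding gene, and they were spread over 19 chromosomes. Exon borders were not analysed here, so the place within an intron was not checked, and neither was the strand of the host.

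miR-7022-3p was placed at chr4:148146937-148146958, minus strand, within Fbxo6, which encodes a substrate-binding subunit of a ubiquitin ligase. miR-6976-3p lay at chr17:46553827-46553847, minus strand, within Srf, the gene of serum response factor, and miR-7055-3p at chr7:45173339-45173361, plus strand, within Slc17a7, which encodes the vesicular glutamate transporter of excitatory neurons. Other detected members lay within Tmem120a (miR-7034-3p), Pom121 (miR-7033-3p), Tbc1d16 (miR-6934-3p), Grk6 (miR-6943-3p), Phf1 (miR-6968-3p), Cpne7 (miR-7080-3p), Slc37a4 (miR-7085-3p), Uggt1 (miR-6897-3p), Rabac1 (miR-7046-3p), and Josd2 (miR-7052-3p). The RNAs of these host genes were not measured on the arrays.

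The seeds were diverse. The 175 members carried 168 different seeds, 6 of which were shared between members, 13 members in all. The seed CACCCUG was the only one carried by 3 members, miR-7018-3p, miR-7023-3p, and miR-7068-3p, and none of these was detected. Another 12 members had the seed of a miRNA outside the block. miR-7002-3p shared UGUGCUU with miR-218-5p, a miRNA of motor neurons and brain, and miR-7061-3p shared AUCCCUU with miR-188-5p. Both miRNAs outside the block were detected on all 12 arrays, and neither member was detected on any.

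Detection on an array required that a probe of the miRNA had over 0.5 of its usable spots well above background. Array brightness, given as the 75th percentile of intensity over 230 miRNAs detected on all 12 arrays, ran from 217 to 348 in sham, from 401 to 619 at 3 DPI, from 588 to 1173 at 14 DPI, and from 1385 to 2936 at 42 DPI. All 3 sham arrays and 1 array of 3 DPI (replicate 1) were on slide 1 and the other 8 on slide 2, so sham shared no slide with 14 or 42 DPI, and slide cannot be told apart from these groups. Of 5 microglial and myeloid miRNAs, 4 were detected on no sham array and 1 on no array of 42 DPI (summed scaled level 0.128 to 0.168 in sham and 0.15 to 0.191 at 42 DPI). Of 5 neuronal miRNAs, 4 were detected on all sham arrays and 4 on all arrays of 42 DPI (9.08 to 11.4 in sham and 16.8 to 20.5 at 42 DPI). The other, miR-124-3p, was detected on no array of sham or of 42 DPI. The 2 oligodendrocyte miRNAs were detected on all arrays of both groups (1.44 to 2.08 in sham and 3.22 to 3.59 at 42 DPI). Erythrocyte miRNAs, 3 in all, were detected on no sham array, and 1 of them on no array of 42 DPI (0.0848 to 0.124 in sham and 0.0443 to 0.0829 at 42 DPI). The part of these differences in the results was not tested, nor was the microglial origin of the exosomes. Fewer exosomes of a kind and less of a miRNA per exosome cannot be told apart in such samples.

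Most members of the block were not detected by this rule in these exosomes. Of the 199 members, 183 were detected on no array and 16 (8.04%) on at least 1. The share was 31.5% of the 200 5p arms with the same numbers, 37.2% of 586 other 3p arms, and 32% of all 1881 miRNAs. miR-7022-3p and miR-6976-3p alone were detected on all 12 arrays, and miR-6976-3p through only 1 of its 2 probes, which gave 74.6% of its intensity. Another 9 members were seen on every array of 42 DPI and on no sham array: miR-6934-3p, miR-6943-3p, miR-6968-3p, miR-7033-3p, miR-7034-3p, miR-7047-3p, miR-7055-3p, miR-7080-3p, and miR-7085-3p. These 9 therefore entered the tests through the injury arrays, which were the brighter ones. The remaining 5 detected members were seen on 2 to 6 arrays each.

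The number of members detected differed between the slides. On each of the 4 arrays of slide 1, 3 of sham and 1 of 3 DPI, 2 members were detected. On slide 2 the numbers were 11 and 15 at 3 DPI, 6, 11, and 14 at 14 DPI, and 12, 14, and 15 at 42 DPI. Over all miRNAs, 243 to 285 were detected in sham, 326 on the 3 DPI array of slide 1 and 392 and 416 on those of slide 2, 408 to 474 at 14 DPI, and 490 to 579 at 42 DPI. For the members, the numbers at 3, 14, and 42 DPI overlapped on slide 2, while for all miRNAs every array of 42 DPI lay above every other array.

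**Figure D2:**
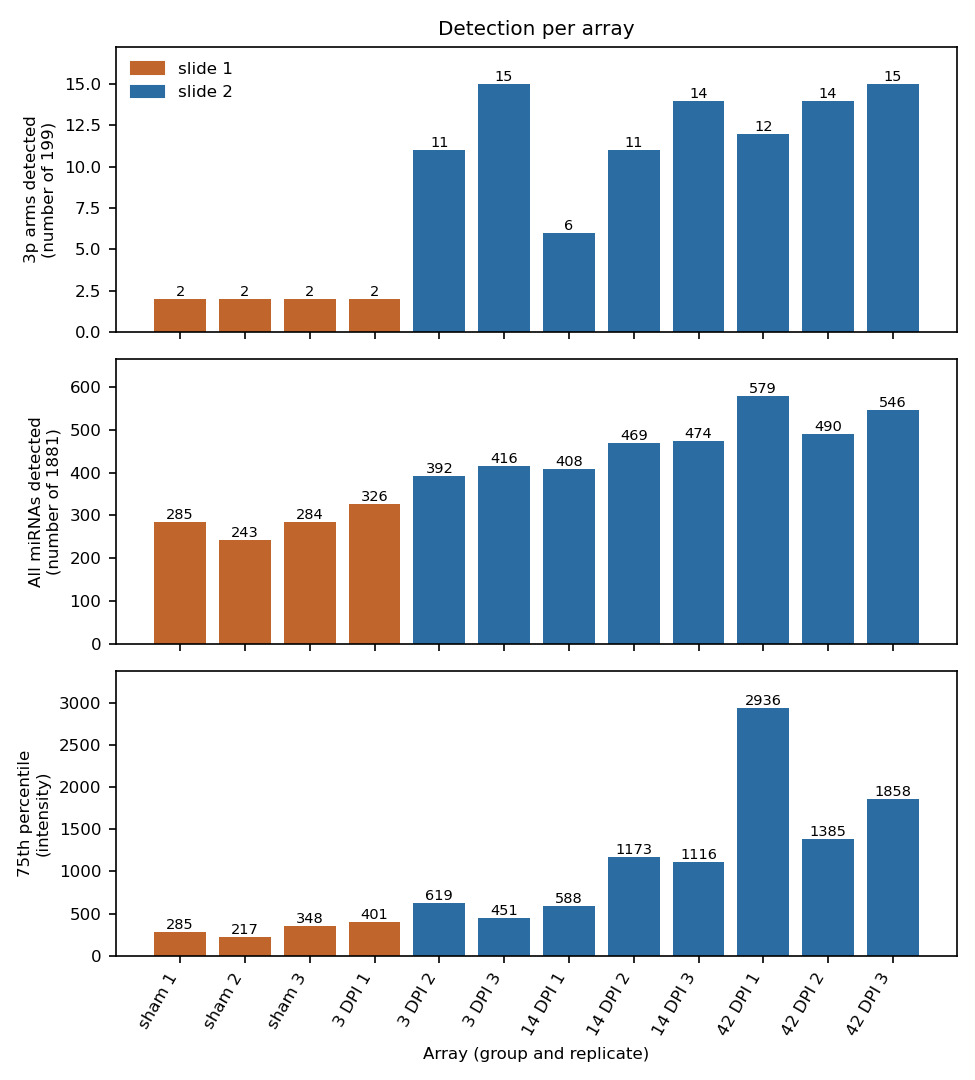
Bars give, for each array (group and replicate, colored by slide), the number of the 199 members detected, the number of all 1881 miRNAs detected, and the 75th percentile of intensity. The 4 arrays of slide 1 show 2 members each and those of slide 2 between 6 and 15, while all miRNAs rise from 243 to 579.

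Detection of a 3p arm was set beside that of the 5p arm of its hairpin. In 198 hairpins with both arms on the array, 6 had both arms detected on at least 1 array, 10 only the 3p arm, 56 only the 5p arm, and 126 neither. The 5p arm was thus detected in 37.5% of the 16 hairpins with a detected 3p arm and in 30.8% of the other 182, and this difference was not tested. The 5p arm of miR-7047 was seen on all 12 arrays and its 3p arm on 7. For miR-7022, miR-6976, and miR-7055 the 5p arm was detected on no array. For miR-7033 the 5p arm was detected on 7 arrays and the 3p arm on 5. Levels were not compared between arms, since these come from different probes.

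Intensities below are background-corrected scanner values before any scaling, in arbitrary units, in the order of replicates. miR-7022-3p measured 39.9, 38.9, and 40.5 in sham, 38.2, 59.2, and 68.1 at 3 DPI, 49.1, 60.4, and 67.4 at 14 DPI, and 61.6, 64.5, and 66.5 at 42 DPI. All 8 arrays of slide 2 lay above the 4 of slide 1, and the 3 DPI array of slide 1 lay among or below the sham arrays. Mean values were 39.8 ± 0.761 (SD, n = 3) in sham and 64.2 ± 2.43 (SD, n = 3) at 42 DPI.

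miR-6976-3p measured 34, 24.6, and 25.8 in sham, 34.9, 42.6, and 59.3 at 3 DPI, 42.6, 34.4, and 39 at 14 DPI, and 33, 35.8, and 37.6 at 42 DPI. Unlike miR-7022-3p, its sham values overlapped those of 42 DPI, and its highest array was of 3 DPI. miR-7055-3p measured 37.2, 34.2, and 34.3 in sham, 35.8, 44.9, and 51.8 at 3 DPI, 34, 46.8, and 52.7 at 14 DPI, and 44.7, 53, and 54.5 at 42 DPI. Its sham arrays, none well above background, lay below all arrays of 42 DPI, and 1 array of 14 DPI lay below the sham arrays.

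Among the tested members, miR-7047-3p had the highest ratio between the slides. It measured 7.03, 8.6, and 7.61 in sham, 7.24, 28.8, and 31 at 3 DPI, 23.4, 29.2, and 37.3 at 14 DPI, and 31, 33.3, and 35.3 at 42 DPI. The mean of slide 2 was 4.09 times that of slide 1, and within 3 DPI the mean of both arrays of slide 2 was 4.13 times the array of slide 1. The next among the tested was miR-6968-3p, with 13.1, 13.9, and 14.7 in sham, 14.4, 28.6, and 31.4 at 3 DPI, 23.3, 28.1, and 34.8 at 14 DPI, and 28.1, 31.6, and 32.4 at 42 DPI, a ratio of 2.12 between slides. The 3 DPI array of slide 1 fell within the range of the sham arrays for both.

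miR-7080-3p measured 19.5, 21.3, and 19.4 in sham, 19.8, 34.7, and 37.3 at 3 DPI, 26.6, 34.4, and 40.2 at 14 DPI, and 36.9, 38.5, and 39.6 at 42 DPI. miR-7085-3p measured 19.4, 17.9, and 14.8 in sham, 17.8, 33.1, and 35 at 3 DPI, 26.1, 30.4, and 35.4 at 14 DPI, and 30.9, 34.2, and 35.8 at 42 DPI. Neither showed an overlap between slides. miR-6943-3p measured 26.2, 25.6, and 24.4 in sham, 23.7, 35.5, and 39.7 at 3 DPI, 29.5, 35.3, and 39.2 at 14 DPI, and 37.5, 41.6, and 42.9 at 42 DPI. miR-6934-3p measured 23.2, 23.2, and 23.1 in sham, 22.8, 30.7, and 34.3 at 3 DPI, 25.8, 30.4, and 35.4 at 14 DPI, and 31.2, 37.7, and 34.7 at 42 DPI. In both the lowest array of all 12 was the 3 DPI array of slide 1.

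In miR-7034-3p and miR-7033-3p, as in miR-6976-3p and miR-7055-3p, values of the slides overlapped. miR-7034-3p measured 24.6, 11.5, and 9.29 in sham, 27.4, 38.6, and 57.8 at 3 DPI, 32.8, 16.4, and 23.8 at 14 DPI, and 27.2, 32.8, and 31 at 42 DPI, with all 3 arrays of 3 DPI above all of sham. miR-7033-3p measured 24.4, 12.5, and 11.5 in sham, 24.1, 15.8, and 32.1 at 3 DPI, 29.4, 21.8, and 23.7 at 14 DPI, and 46.4, 29.3, and 28.1 at 42 DPI, and was the only detected member whose 3 DPI array of slide 1 did not lie below both other arrays of that group. miR-7046-3p was seen on no sham array and on 2 arrays of each injury group. It measured 17, 18.9, and 18.9 in sham, 17, 22.2, and 25.9 at 3 DPI, 22.7, 23.7, and 25.1 at 14 DPI, and 24.6, 26.4, and 27.3 at 42 DPI, with no overlap between slides, and it went untested because no group had it on all 3 arrays.

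**Figure D3:**
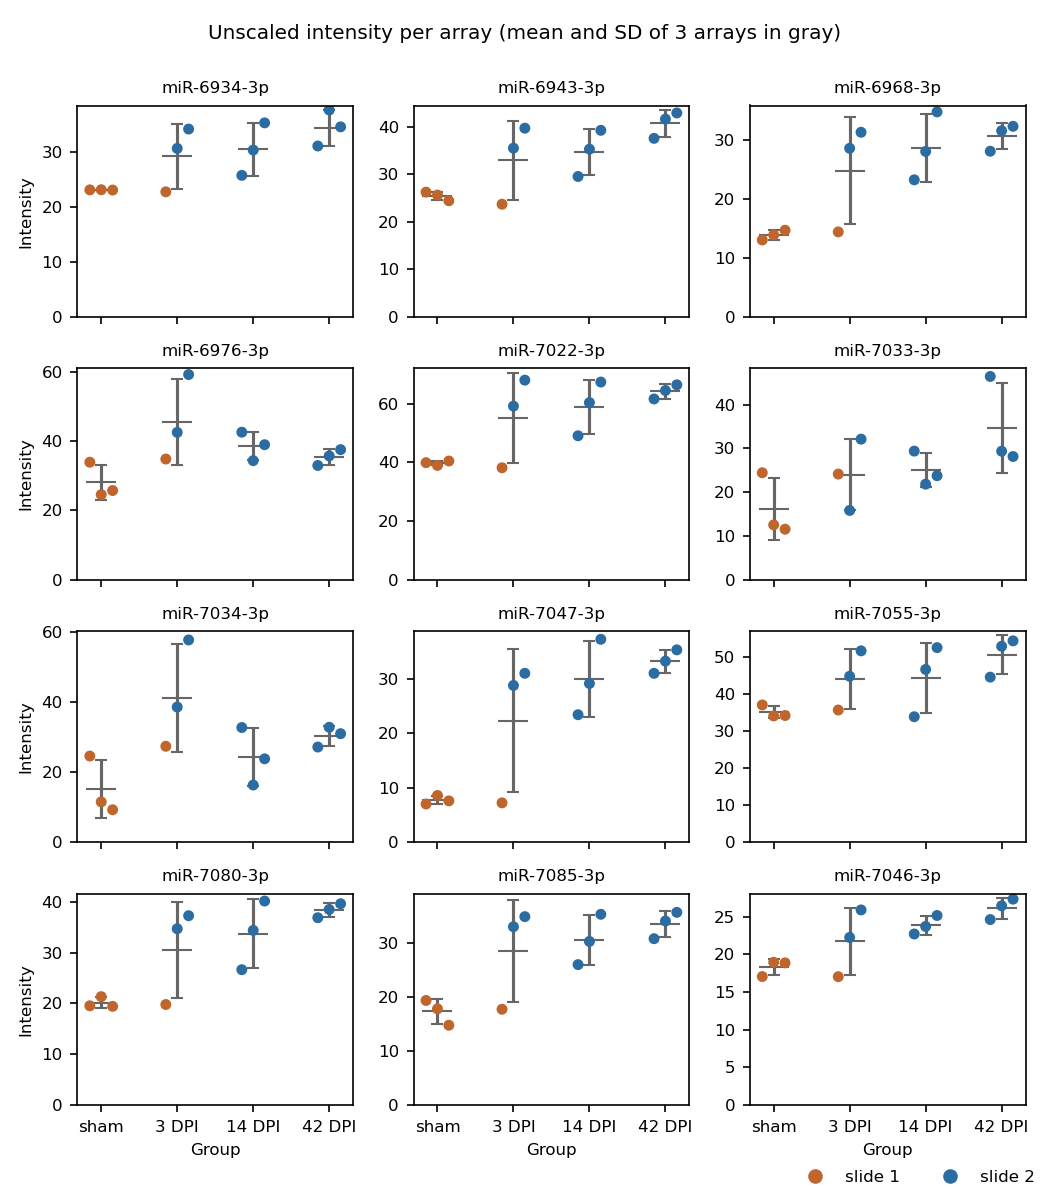
Unscaled intensity (arbitrary units, axes from 0) of the 11 tested members and miR-7046-3p on each of the 12 arrays, by group, with points colored by slide and the mean and SD of 3 arrays in gray. In most panels the 3 DPI point of slide 1 lies with the sham points.

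All but miR-7022-3p and miR-6976-3p of the 16 detected members were detected only on slide 2, which favors higher values there, so that nothing is read from a share over them. Over all 199 members, detected or not, 56 (28.1%) had all 8 arrays of slide 2 above all 4 of slide 1, beside 349 of all 1881 miRNAs (18.6%). The 3 DPI array of slide 1 lay below both 3 DPI arrays of slide 2 in 143 of the 199 members (71.9%) and in 48.8% of all miRNAs. Most of these members were detected on no array, and these shares were not tested. The ratio of slide 2 to slide 1 had a median of 1.58 over the 11 tested members and of 3.92 over all miRNAs tested, both lists having passed the same filter. Whether these ratios come from the slide, from the brightness of the arrays, or from the injury was not tested.

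For the tests, intensities were scaled by the 75th percentile of their array and raised to a floor of -3.66 (log2) where they lay under it. limma was then run on log2 values of the 12 arrays, with Benjamini-Hochberg adjustment over all miRNAs tested, 25.8% of those on the array. A difference below is a log2 change of scaled level, and the floor shortens it where an injury group lies under it. For the 9 members detected on no sham array, the sham value was not well above background by the spot rule. The scanner software, by its own call, marked 9 to 12 members as present on each sham array. The size of a fall against such sham values is uncertain and can be overstated. All 11 tested members lay at the floor on every array of 42 DPI, and 10 of them on every array of 14 DPI. Values at the floor do not vary, so the SE and p-values of the members can understate the spread between arrays.

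At 3 DPI, the acute time point, limma called 0 of the 11 tested members, beside 0% of all miRNAs tested. Only miR-7055-3p had an unadjusted p under 0.05, with a change of -0.44 (SE 0.17, adjusted p = 1 by limma). The changes of the 11 members ran from -0.44 to 0.19, with a median of -0.08 beside 0 over all miRNAs.

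At 14 DPI, the sub-acute time point, limma again called 0 of the 11 members, beside 1.23% of all miRNAs tested (0.823% higher and 0.412% lower). An unadjusted p under 0.05 was found in 2, miR-7022-3p (-0.83, SE 0.20, adjusted p = 0.18 by limma) and miR-7055-3p (-0.68, SE 0.17, adjusted p = 0.18). Both had all arrays of 14 DPI below all arrays of sham after scaling. The median change of the members was -0.1, beside 0. miR-7022-3p passed the threshold when replicate 3 of 3 DPI or replicate 1 of 14 DPI was left out (limma adjusted p = 0.0457 and 0.0468).

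At 42 DPI, the chronic time point, limma called 2 of the 11 members, both lower, beside 14% of all miRNAs tested (7.2% higher and 6.79% lower). miR-7022-3p was detected in both groups and changed by -0.85 on the log2 scale (SE 0.20, adjusted p = 0.0292 by limma). As all its 42 DPI arrays lay at the floor, this is the distance from sham to the floor, not the size of the fall. The other call was miR-7055-3p (-0.68, SE 0.17, adjusted p = 0.0397 by limma). Scaled values of miR-7022-3p before the floor were -2.84, -2.48, and -3.10 in sham and -5.57, -4.42, and -4.80 at 42 DPI, so the groups did not overlap. Those of miR-7055-3p were -2.94, -2.67, and -3.34 in sham and -6.04, -4.71, and -5.09 at 42 DPI. Since no sham array detected miR-7055-3p and all 42 DPI arrays lay at the floor, this value is not the size of a measured fall. miR-6976-3p had a change of -0.37 (95% interval -0.83 to 0.09, adjusted p = 0.261 by limma), and the other 8 members lay between -0.27 and 0. The median over the 11 was -0.1, beside 0 over all miRNAs.

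Neither call held in every setting. No member was called when replicate 1 or 2 of sham, replicate 1 of 3 DPI, or any array of 42 DPI was left out, and only miR-7022-3p was called when replicate 2 or 3 of 14 DPI was. With slide as a block in the fit, the changes were -1.19 for miR-7022-3p and -0.77 for miR-7055-3p (adjusted p = 0.448 for each by limma), and no member was called. In that fit the slide term could be estimated only within 3 DPI, where 1 array was on slide 1. These changes therefore rest on that array and cannot be read as falls freed of the slide.

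The direction at 42 DPI turned with the scaling. Without scaling between arrays, the median of all tested miRNAs lay 1.92 higher at 42 DPI than in sham on the log2 scale, and that of the 11 members 0.69 higher. limma then called 5 of the 11 members higher and 0 lower, beside 84.2% of all miRNAs called higher. These were miR-7047-3p, miR-7080-3p, miR-7085-3p, miR-6968-3p, and miR-7033-3p. All 5 were detected on no sham array and passed the filter through the injury arrays, where they are high, so their count is no evidence of a rise. miR-7022-3p was 0.69 higher (SE 0.34, adjusted p = 0.0659 by limma). In the other comparisons without scaling, 0 members were called higher, beside 0% of all miRNAs at 3 DPI, 66% at 14 DPI, and 34.2% between 14 and 42 DPI. With scaling and the lowest floor, an alternative chosen after seeing the data, 10 of the 11 were called lower, all but miR-7047-3p, beside 29.4% of all miRNAs called lower. Of these, only miR-7022-3p and miR-6976-3p were detected in sham, and miR-7022-3p fell by 2.13. With that floor 1 member was called lower at 14 DPI, miR-7055-3p, beside 2.06% of all miRNAs, and 0 between 14 and 42 DPI, beside 0.206%. The median of the 11 members lay below that of all miRNAs tested with and without scaling, while its sign depended on the scaling. All but miR-7022-3p and miR-6976-3p passed the filter through the injury arrays, so nothing is read from these medians.

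**Figure D4:**
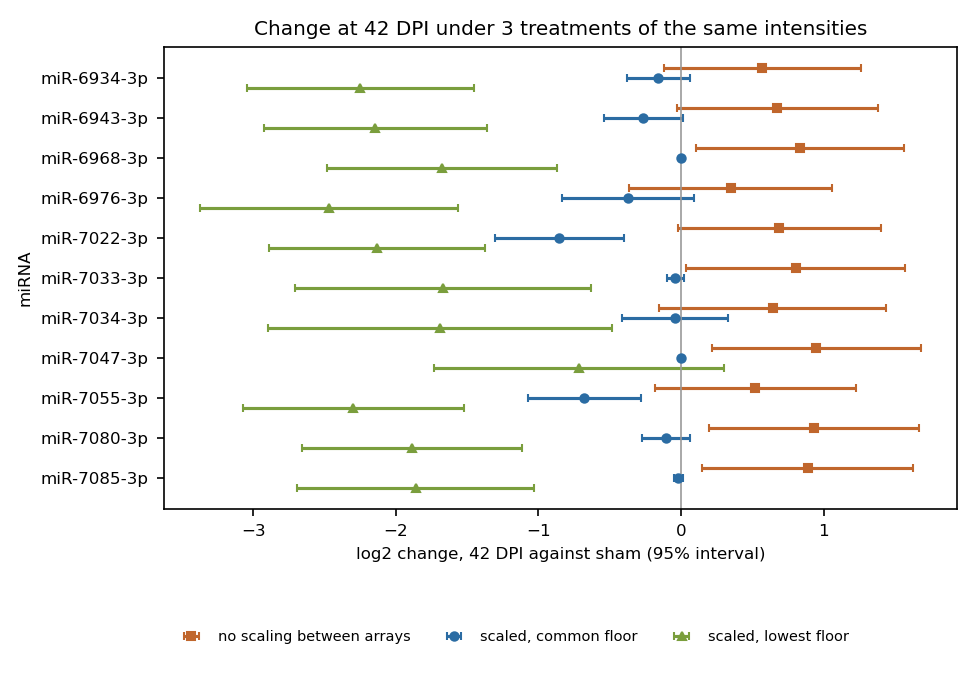
Points give the log2 change at 42 DPI against sham of the 11 tested members, with 95% intervals, for unscaled intensities (squares), scaled values with the common floor (circles), and scaled values with the lowest floor (triangles). All 11 unscaled changes lie above 0, from 0.35 to 0.95, and all 11 with the lowest floor lie below 0, so the sign depends on the scaling, and for all but miR-7022-3p and miR-6976-3p the sham values are not well above background.

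For the 9 members detected on no sham array, a fold was computed from the mean of the injury group and a sham limit. On each sham array that limit was the higher of its lowest detected signal and the member's own. The fold is a bound only where every array of the injury group detected the member. In unscaled intensity at 42 DPI the bounds ran from at least 1.44-fold higher for miR-7055-3p to at least 2.16-fold higher for miR-7047-3p. Since the 9 were selected by detection at 42 DPI and not in sham, bounds above 1 are close to what that selection requires and are given as a description. After scaling no such fold exceeded 1 at 14 or 42 DPI, and at 3 DPI only that of miR-7034-3p did, at 1.26. With 2 of its 3 arrays of 3 DPI detected, this fold is not a lower bound. Its limma change at 3 DPI was 0.19 (SE 0.16, unadjusted p = 0.277).

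Between 14 and 42 DPI, groups that share slide 2, limma called 0 of the 11 members, beside 0% of all miRNAs tested. No member had an unadjusted p under 0.05. Except for miR-7022-3p, both groups lay wholly at the floor, so this comparison could not have called the members. On the 8 arrays of slide 2 alone, a fit added after seeing the data, 0 were called as well. The values at the floor leave no order, so the unfloored values are given. In unscaled intensity the mean of 42 DPI was 0.916 times that of 14 DPI for miR-6976-3p, 1.09 times for miR-7022-3p, 1.14 times for miR-7055-3p, and at most 1.39 times, for miR-7033-3p. In scaled level, all 16 detected members had a lower mean at 42 than at 14 DPI, with differences from -0.65 (miR-7033-3p) to -1.22 (miR-6976-3p) on the log2 scale. The unscaled ratios of the 16 detected members ran from 0.916 to 1.39. The brightness that intensities were divided by ran from 588 to 1173 at 14 DPI and from 1385 to 2936 at 42 DPI. What part each had in the scaled differences was not tested.

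Mirtrons known outside the block were also examined. Of 6 arms of miR-877, miR-1224, and miR-702, 4 were detected on at least 1 array, and miR-1224-5p and miR-702-3p on all 12. miR-877-3p was detected on 8 arrays, none of them sham, with mean intensities of 32.6 ± 1.35 (SD, n = 3) in sham and 81.9 ± 2.95 (SD, n = 3) at 42 DPI. Of the 3 tested, limma called 1 lower at 42 DPI, miR-1224-5p (-2.14, SE 0.42, adjusted p = 0.0292), and 0 at 3 and 14 DPI, with medians of -0.59, -0.2, and -0.51. Without scaling its mean intensity was 606 ± 172 in sham and 967 ± 258 at 42 DPI (SD, n = 3), so this direction too turned with the scaling. Of the 42 tested 5p arms of the block, limma called 2 lower at 42 DPI and 0 in the other comparisons, with a median of -0.6 at 42 DPI.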

How the data were processed

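Microglial exosome RNA was hybridized to 12 Agilent miRNA arrays with 1 dye. For each array the authors deposited a scanner file, with a background-corrected intensity per spot (Agilent Feature Extraction 10.7.1.1 per the labels) that was not scaled between arrays, and a table of processed values. That deposited table proved to be on a log2 scale, with 174 to 177 of the 199 members at its lowest value of -3.32 on each array, and with its scaling and centering unknown. Its columns were used only as an alternative.

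After removal of control and outlier spots, a probe's spots were averaged and the 2 or 3 probes of a member summed. Signals were scaled by the 75th percentile, per array, of the 230 miRNAs present on all 12 arrays and floored at the highest, over arrays, of the lowest scaled signal detected (-3.66 on the log2 scale). A total of 486 miRNAs, present on every array of a group or more, were fitted with limma 3.58.1 (R 4.3.3) over all 12 arrays, two-sided and without covariates, and called at a Benjamini-Hochberg adjusted p under 0.05. No spot was saturated, and the number of arrays limits the precision. Other steps used Python 3.11.15, pandas 2.3.3, NumPy 2.4.6, and SciPy 1.17.1. The fit was run on data simulated from values with the lowest floor. That simulation does not cover members held at the common floor, so it says nothing of their p-values. Names came from the injury arrays, since 2 spots per sham array, none of a member, carry other names.

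Members and comparison lists were chosen with earlier results of these data known. Members named are those called, those tested, the 5 of highest mean scaled signal, and miR-7046-3p, and others are named where a count of 5 or fewer or a feature singled them out after values were seen. Same-numbered arrays of sham and 14 DPI departed from their group means alike (r = 0.843, 0.443, and 0.777 over miRNAs), a pairing seen only in these values, and the replicate block changed no member's call there. Alternatives covered background correction, probe summary, scaling, floor, filters, detection calls, blocks, the deposited table, the methods' t-test, and leaving out arrays in turn. The floors at the median and the lowest detected signal and the fit on slide 2 alone were added after seeing the data.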

Additional observations from a re-analysis of the deposited data

How the results depend on the processing

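Against 0 members called at 3 DPI, normexp background correction called 1, the 75th percentile over all miRNAs 2, and the deposited values called 2, and leaving out single arrays 0 to 0. At 14 DPI, where 0 were called, normexp, the scanner software's total signal, and the lowest floor called 1 each, quantile normalization 2, the median floor 3, the 75th percentile over all miRNAs 4, the floor times 0.5 4, the software's detection call 7 of 20 tested, the deposited values gave 8 (2 higher, 6 lower), the methods' t-test at an unadjusted p under 0.05 2, and single arrays left out 0 to 1. At 42 DPI, where 2 were called, the replicate block, the slide block, the brightest probe, the floor times 2, and no filter called 0. Normexp, the total signal, only miRNAs detected on all 12 arrays, only the groups compared, and the methods' t-test, both at an unadjusted p under 0.01 and after Benjamini-Hochberg, called 1. The 75th percentile over all miRNAs called 5, no scaling 5 (all higher, none detected in sham), the floor times 0.5 6, the median floor 8, the lowest floor 10, the software's detection call 10 of 20, the deposited values gave 10 (2 higher, 8 lower), and single arrays left out 0 to 2. Replicate numbers of sham did not pair with those of 3 or 42 DPI (correlations from -0.701 to 0.537), and the replicate block moved no other count. Between 14 and 42 DPI no alternative called a member, but with the common floor only miR-7022-3p had a change that could be tested there. The methods' t-test at an unadjusted p under 0.05 gave 0 between 14 and 42 DPI and at 3 DPI. The cause of these shifts was not tested. Filters changed which miRNAs entered the fit, and the software's detection call also changed the miRNAs used for scaling and the floor.

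Without scaling, signs turned for miR-7022-3p (0.43, 0.56, and 0.69 at 3, 14, and 42 DPI against sham, and 0.13 for 42 against 14 DPI), miR-6976-3p (0.68, 0.47, and 0.35 against sham), and miR-7055-3p (0.31, 0.31, and 0.52). The change of miR-6976-3p at 3 DPI also turned with the total signal (0.25) and ran from -0.302 to 0.0645 with single arrays left out. By the software's call 25 members were detected, 20 on all arrays of a group and 8 on all 12 arrays, and with all spots required 3 and 1. Low signal over background on slide 1 limits what can be seen of the dim members there.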

Other observations

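Some members that the spot rule left out were marked as present by the scanner software. These were 9 members, chosen here for that mark after the values were seen. miR-6924-3p was so marked on 8 arrays, with unscaled intensities from 15.9 to 21.2 and no step between slides, its 4 arrays of slide 1 lying between 17.1 and 17.5. miR-7067-3p and miR-7045-3p were marked on 7 arrays each. miR-6931-3p, marked on 6, measured at most 7.1 on slide 1 and at least 13.5 on slide 2, without an overlap.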
